A study of Mus musculus with 29 samples.

Results

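Partly methylated windows of ordinary CpG density were examined in mouse lung DNA. A window here is a stretch with a percent methylation (%DNAm) in each library, and nearly all windows hold 50 CpG dinucleotides, so a short window is CpG-dense and a long one is CpG-poor. The windows were chosen by 4 criteria: they lie on chromosomes 1 to 19, they are over 1500 and under 20000 bp long, their mean over the 14 unchallenged libraries is at least 20% and under 50%, and all 29 libraries have a value. In all, 13373 of the 260686 windows of the series met these criteria, or 5.81% of the 229987 windows that met all of them but the one on the level. A further 24 windows lay in the range and were left out for a missing value. Because measured values chose the windows, their level is a description and not a result.

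The DNA came from lung, labelled RML, of 13-week-old female Balb/c offspring and was read by whole genome enzymatic methylation sequencing, in which enzymes convert unmethylated cytosines. Dams received saline (Sham) or fine airborne particles, PM2.5 (PM), by the nose before mating, through gestation and until weaning. The offspring received no particles themselves, but the paper states that they met components that pass into the milk. As adults the offspring were sensitised to and challenged with ovalbumin (OVA), an egg protein that induces allergic airways disease (AAD), or were given saline or PBS in its place. The Sham, Sham-OVA and PM groups had 7 libraries each and the PM-OVA group had 8, all from whole tissue, and the labels do not say which animals were littermates, so p-values measure the spread between these libraries. No deposited value gives the read depth, and the tissue label could not be checked against expressed markers in methylation data alone.

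In most mammalian DNA, CpGs are either methylated in nearly every copy or, at active promoters and CpG islands, free of methylation. Intermediate levels arise where cell types of a tissue differ, as at enhancers used by a single lineage, where the parental copies differ, as at imprinted genes, where a window straddles the shore of an island, or where methylation varies from cell to cell. In whole tissue a difference can come from a change in the numbers of cells of each type or from a change within cells, and these cannot be told apart here.

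One library stands apart. Sham replicate 1 has a value in 1224 windows of the Y chromosome, against 29 to 46 in the other 28 libraries, although all animals are labelled female. It was kept. Without it, 491 rises and 72 falls were called in the Sham arm, in place of the 500 and 72 given below, and 295 and 55 in both arms in place of 299 and 58. Library names of PM-OVA replicates 7 and 8 carry the letters Rel, which the labels do not explain, and without both 285 rises and 59 falls were called in the PM arm, in place of 330 and 74. Across the windows, pairs of libraries of a group correlated at 0.937 to 0.971 and pairs from different groups at 0.818 to 0.972, and no pair held identical values.

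Stretches of 8 of these windows are shown first, since later results turn on them. Each is the densest 240 bases of CpGs in its window, read 5′ to 3′ on the plus strand of GRCm38, the C57BL/6J reference and not the Balb/c genome of the animals, with every CpG in capitals. The first 3 come from the windows with the largest rises after OVA and the next 3 from those with the largest falls, by the mean of the differences in both arms and with 1 window per gene name, then one from the window that varied most between animals and one from an imprinted gene. They lie at chr6:52202560-52202799 in the Hoxa3 to Hoxa5 region (12 CpGs), chr4:97868817-97869056 in an intron of Nfia (22 CpGs), chr4:117304036-117304275 in an intron of Rnf220 (22 CpGs), chr4:130913161-130913400 in Laptm5 (9 CpGs), chr4:63402234-63402473 in Akna (11 CpGs), chr7:70326286-70326525 in an intron of Gm29683 (9 CpGs), chr6:28928007-28928246 in an intron of Snd1 (19 CpGs) and chr7:62464321-62464560 in Peg12 (26 CpGs).
Hoxa3-Hoxa5: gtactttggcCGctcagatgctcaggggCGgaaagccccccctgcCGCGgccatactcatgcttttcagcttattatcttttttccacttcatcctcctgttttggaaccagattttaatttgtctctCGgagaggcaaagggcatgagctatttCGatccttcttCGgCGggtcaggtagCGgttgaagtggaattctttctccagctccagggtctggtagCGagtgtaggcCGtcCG
Nfia: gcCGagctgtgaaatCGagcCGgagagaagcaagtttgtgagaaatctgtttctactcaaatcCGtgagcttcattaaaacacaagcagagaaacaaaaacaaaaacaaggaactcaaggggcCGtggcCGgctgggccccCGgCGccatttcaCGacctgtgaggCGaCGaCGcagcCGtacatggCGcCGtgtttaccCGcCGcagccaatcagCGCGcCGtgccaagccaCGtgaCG
Rnf220: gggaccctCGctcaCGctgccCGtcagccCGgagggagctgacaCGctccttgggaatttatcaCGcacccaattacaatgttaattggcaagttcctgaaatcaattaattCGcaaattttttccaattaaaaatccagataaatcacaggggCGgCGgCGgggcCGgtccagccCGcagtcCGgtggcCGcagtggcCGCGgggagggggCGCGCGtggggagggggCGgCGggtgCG
Laptm5: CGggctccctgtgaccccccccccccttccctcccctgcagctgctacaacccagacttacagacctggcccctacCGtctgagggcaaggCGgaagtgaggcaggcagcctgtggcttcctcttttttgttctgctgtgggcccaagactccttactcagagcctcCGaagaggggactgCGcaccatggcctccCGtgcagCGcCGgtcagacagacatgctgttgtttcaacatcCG
Akna: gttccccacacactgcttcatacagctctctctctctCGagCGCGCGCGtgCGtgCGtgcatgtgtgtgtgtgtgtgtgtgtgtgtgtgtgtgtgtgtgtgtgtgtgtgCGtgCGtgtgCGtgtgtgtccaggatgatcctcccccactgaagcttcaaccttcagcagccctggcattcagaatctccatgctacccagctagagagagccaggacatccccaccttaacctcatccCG
Gm29683: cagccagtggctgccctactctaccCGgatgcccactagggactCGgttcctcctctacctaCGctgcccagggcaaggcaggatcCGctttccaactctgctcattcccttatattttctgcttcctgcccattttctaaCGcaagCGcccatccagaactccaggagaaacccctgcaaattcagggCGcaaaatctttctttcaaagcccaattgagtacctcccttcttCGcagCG
Snd1: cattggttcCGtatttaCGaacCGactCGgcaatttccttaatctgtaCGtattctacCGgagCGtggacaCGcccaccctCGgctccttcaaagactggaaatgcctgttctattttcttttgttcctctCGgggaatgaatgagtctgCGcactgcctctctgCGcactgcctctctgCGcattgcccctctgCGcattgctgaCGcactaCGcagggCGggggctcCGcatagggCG
Peg12: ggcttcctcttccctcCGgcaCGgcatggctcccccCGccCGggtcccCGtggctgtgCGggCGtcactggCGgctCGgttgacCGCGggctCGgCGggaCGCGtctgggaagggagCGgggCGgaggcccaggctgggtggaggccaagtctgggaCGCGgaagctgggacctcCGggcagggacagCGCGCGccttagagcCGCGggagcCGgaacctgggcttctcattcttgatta
CpGs are packed most closely in the Nfia, Rnf220 and Peg12 stretches, while the rising Hoxa3-Hoxa5 stretch holds about as few as the falling Akna stretch. A level is an average over a whole window, so it does not say which of these CpGs changed.

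The partly methylated windows lay near gene starts far more often than the rest. A GENCODE transcript start fell inside 40.9% of them (5473 windows), and another 37.0% (4951) had one within 2000 bp, against 17.7% and 12.6% of all windows of this length. Intronic windows made up 13.0% (1738) and exonic windows, away from any start, 8.91% (1191), against 36.4% and 33.0%. The remaining 20 windows overlapped no GENCODE gene. Windows of 50% and over, by comparison, held a start in 15.7% of cases, and those under 20% in 49.8%.

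Their sequence was mixed. The median window was 3135 bp long (quartiles 2421 and 4082), with a GC content of 47.1% and a ratio of observed to expected CpGs of 0.288, whereas windows of 50% and over had medians of 5153 bp, 43.7% and 0.201, and windows under 20% had 2000 bp, 48.5% and 0.412. An island-like stretch is defined here as 200 bases with a GC content of at least 50% and an observed to expected ratio of at least 0.6. Such stretches held a median of 38.0% of the CpGs of a partly methylated window, 0% in windows of 50% and over and 64.0% in windows under 20%. The densest 500 bp held 42.0% of a window's CpGs. The median repeat content was 20%, against 23.7% in windows of 50% and over.

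Many of the windows bridged a methylated and an unmethylated stretch. Of the 11104 windows with another window within 5000 bp on both sides, 5263 (47.4%) had a neighbour under 20% on one side and of 50% or over on the other. Another 2776 (25%) were dips between neighbours of 50% and over, and 251 (2.26%) lay between neighbours that were both at 20 to 50%. The windows formed 11667 runs of adjacent members, of which 10223 were a single window. The longest run, of 7 windows, covered immunoglobulin heavy chain variable genes around Ighv1-23, and 6 runs of 6 windows lay at another immunoglobulin stretch around Ighv7-1, at Gm28453 and its neighbours, and at Sptbn1, which encodes a spectrin of the membrane skeleton, Ets1, a lymphoid and endothelial transcription factor, Acvrl1, an endothelial receptor for bone morphogenetic proteins, and Apc2, a relative of the Wnt pathway protein Apc.

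**Figure D1:**
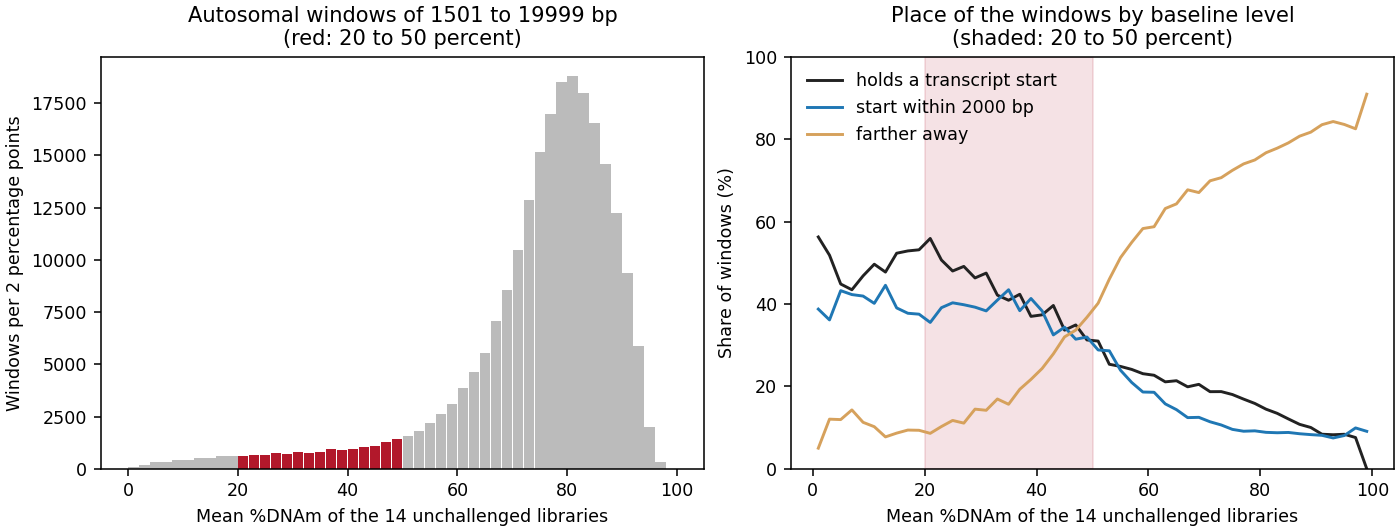
Left, number of autosomal windows of over 1500 and under 20000 bp per 2 percentage points of the mean %DNAm of the 14 unchallenged libraries, with the 20 to 50% range in red. Right, share of those windows (%) that hold a transcript start, have one within 2000 bp or lie farther away, by the same mean, with the range shaded. The chosen windows form the low shoulder of a distribution that peaks near 80%, and within the range the share far from any start climbs with the level.

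The windows carried 9484 gene names, as the deposited table assigns them, and 7050 names had a single window. Galnt2l had the most, with 108 of its 1248 windows of this length, on chromosome 8 between 119990878 and 124264827. This span covers many other GENCODE genes, so the name stands for a region rather than a gene. The same holds for Fgfr2 on chromosome 7, with 23 of 587. Gm42416 on chromosome 18 had 16 of 118, spread between 37287350 and 37827308. Camta1, a calmodulin-binding transcription activator, had 15, and Rbpms, an RNA-binding protein, and Sptbn1 had 12 each. By chromosome, the share of windows in the range went from 4.56% on chromosome 16 to 7.98% on chromosome 11.

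At the edges of the range the criteria separated near-identical levels. A window of 1500011B03Rik at 19.9987% was left out and one of Klhl3 at 20.0003% was taken in. At the upper edge D630033O11Rik at 49.9983% was taken in and Aifm2 at 50.0006% was left out.

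Averaged over all 13373 windows, methylation differed little between groups. The Sham libraries lay between 36.6% and 37.6% with a median of 36.9%, and the Sham-OVA libraries between 37.3% and 38.6% with a median of 38.1%. The PM libraries lay between 36.5% and 37.8% with a median of 37.0%, and the PM-OVA libraries between 37.4% and 38.1% with a median of 37.7%. OVA and unchallenged libraries thus overlapped in both arms. The group means were 36.9% ± 0.359 in Sham, 38.0% ± 0.497 in Sham-OVA, 37.2% ± 0.466 in PM and 37.7% ± 0.300 in PM-OVA (SD; n = 7, 7, 7 and 8), so OVA means were higher by 1.09 points in the Sham arm and by 0.549 points in the PM arm. After each library was centred by its median difference from the window means, over all tested windows, the OVA differences became 1.48 and 1.53 points. The gap between the arms thus depends on the scaling. Windows of 50% and over went the other way, with OVA means lower by 0.489 and 1.21 points, and the mean of all tested windows was lower by 0.318 and 0.979 points. No test was made of these averages. The unchallenged libraries enter both the choice of the windows and the OVA differences. In windows chosen by the same range on the Sham libraries alone the PM arm differed by 0.553 points, and in windows chosen on the PM libraries alone the Sham arm differed by 1.04 points.

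To find which windows differed after OVA, each of the 259167 windows with at least 3 values in every group was tested with limma on a log2 ratio of methylated to unmethylated percentages, with Benjamini-Hochberg adjustment over all of them. A window was called when its adjusted p was under 0.05 and its group means differed by at least 10 percentage points. In the Sham arm, 500 of the 13373 windows were called higher in Sham-OVA (3.74%) against 0.479% of all tested windows, and 72 were called lower (0.538%) against 0.296%. In the PM arm, 330 were called higher in PM-OVA (2.47%) against 0.263% of all tested windows, and 74 lower (0.553%) against 0.321%. Of the calls among these windows, 87.4% in the Sham arm and 81.7% in the PM arm were rises, against 61.9% and 45.1% of the calls among all tested windows. Among windows of this length under 20%, all 30 calls in the Sham arm and all 18 in the PM arm were rises. With 5.16% of the tested windows, the partly methylated ones held 40.3% of the rises and 9.40% of the falls called in the Sham arm. Windows at the same level but CpG-dense, of 1500 bp or less, were called more often still, with 111 higher in the Sham arm (13.4%) and 79 in the PM arm (9.53%).

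The unchallenged libraries that chose the windows also enter these differences, so the counts above are a description. Choosing on one arm and taking the difference of means in the other uses separate libraries. The p-values still rest on an estimate of spread from all 29 libraries in 1 fit. Of 13492 windows chosen on the Sham libraries alone, 335 were called higher (2.48%) and 75 lower (0.556%) for OVA in PM. Of 13296 windows chosen on the PM libraries alone, 486 were called higher (3.66%) and 76 lower (0.572%) for OVA in Sham. The backgrounds are those given above for the same arm.

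Without the minimum difference, the calls were much more numerous. In the Sham arm, 3373 windows (25.2%) had an adjusted p under 0.05 and a higher mean after OVA, against 13.3% of all tested windows, and 1709 (12.8%) a lower mean, against 22.3%. In the PM arm, 2784 (20.8%) were higher, against 9.26%, and 2176 (16.3%) lower, against 34.8%. The median window differed by 0.444 points in the Sham arm and 0.0210 points in the PM arm, while the median of all tested windows was -0.414 and -1.03 points. The skew to rises was not particular to these windows. Of 4052 windows of this length under 20%, 1177 were higher and 414 lower in the Sham arm. In the PM arm 1008 were higher (24.9%) and 541 lower (13.4%). Their median differences were 0.488 points in the Sham arm and 0.231 in the PM arm. Of CpG-dense windows at the same level, 35.6% were higher and 10.5% lower in the Sham arm, and 28.8% and 12.9% in the PM arm.

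Both arms shared most of their calls. Of these windows, 299 were called higher in both arms (2.24%, against 0.226% of all tested windows) and 58 lower in both (0.434%, against 0.232%). The shared rises were 59.8% of the rises called in the Sham arm and 90.6% of those called in the PM arm, and the shared falls 80.6% and 78.4%. The 201 windows called higher in the Sham arm alone were all higher in PM-OVA than in PM too, with a median difference of 8.45 points there against 11.1 in the Sham arm. The arms share no library. Of the 522 windows that the Sham libraries placed in the range and the Sham arm called higher, all 522 were also higher in PM-OVA than in PM, by a median of 10.5 points, 306 of them called. In 320 of the 522 every PM-OVA library was above every PM library, as in 1.65% of all tested windows. The average of those windows lay between 37.5% and 44.7% in the PM libraries (median 40.6%) and between 49.5% and 54.1% in the PM-OVA libraries (median 51.8%). Likewise, all 72 windows chosen and called lower in the Sham arm were lower in PM-OVA, by a median of 11.8 points, 58 of them called. Their average lay between 39.0% and 44.0% in PM and between 27.8% and 32.1% in PM-OVA.

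**Figure D2:**
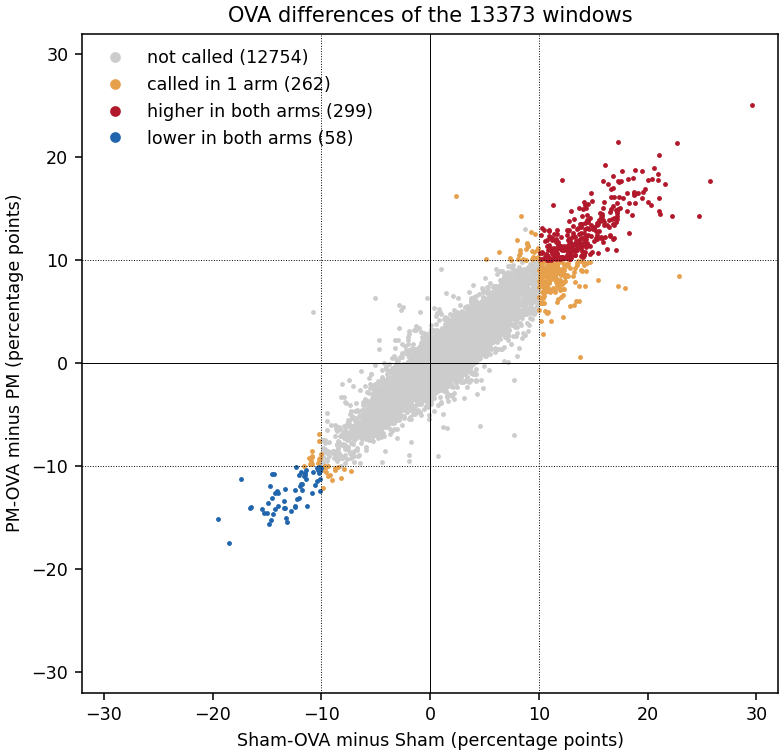
Difference of group means after OVA in percentage points, Sham arm on the x axis and PM arm on the y axis, 1 point per window, with dotted lines at 10 points. The windows called higher in both arms (red, 299) and lower in both (blue, 58) lie along the diagonal, and nearly all windows called in 1 arm (orange) sit just across a dotted line from them.

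Where a window lay went with how often it was called. Among intronic windows, 187 of 1738 (10.8%) rose in the Sham arm and 126 (7.25%) in the PM arm, and among exonic windows 90 of 1191 (7.56%) and 63 (5.29%). Among windows that held a transcript start, 99 of 5473 (1.81%) and 61 (1.11%) rose. The median difference of intronic windows was 1.89 points in the Sham arm and 1.33 in the PM arm, and that of windows holding a start 0.255 and -0.0988. Falls were spread more evenly, at 0.457% of windows with a start and 0.806% of intronic windows in the Sham arm. Of the 58 windows lower in both arms, 23 held a start (39.7%), against 53 of the 299 higher in both (17.7%).

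Windows with few island-like CpGs were called more often as well. Where under 10% of the CpGs lay in island-like stretches, 180 of 1977 windows (9.10%) rose in the Sham arm and 111 (5.61%) in the PM arm. Where at least 50% did, 83 of 4252 (1.95%) and 57 (1.34%) rose. Dips between methylated neighbours rose in 6.20% of cases in the Sham arm, windows between partly methylated neighbours in 14.7%, and windows between an unmethylated and a methylated neighbour in 2.01%. Place, island content, neighbours and level go together, and their separate parts were not tested.

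**Figure D3:**
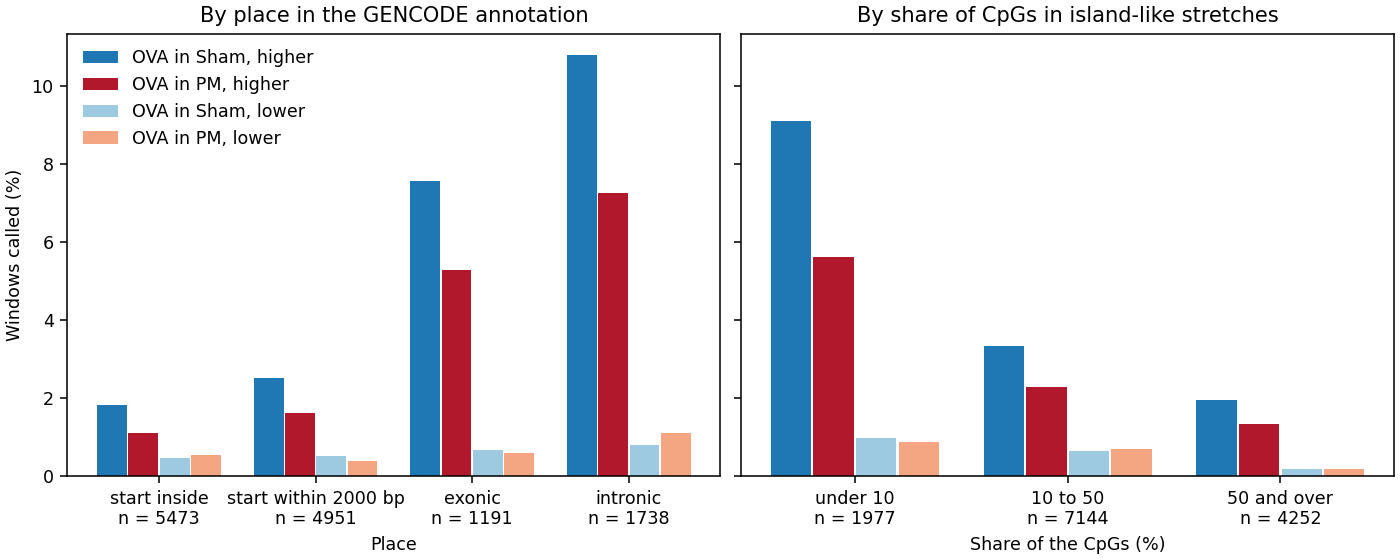
Share of the windows called after OVA (%), as bars from 0, for rises and falls in each arm, by place in the annotation (left) and by share of CpGs in island-like stretches (right), with the number of windows under each group. Rises range from 1.81% of windows with a start to 10.8% of intronic windows in the Sham arm, and falls stay at or under 1.09% by place.

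The 10 largest rises called in both arms, by the mean of both differences, are described first. The window named Gm28308 (chr6:52201945-52203659) covers part of Hoxa3 and Hoxa5, which encode transcription factors that pattern the body axis, Hoxa5 also the lung. Its values were 16.6 to 23.9% (median 19.9%) in Sham and 40.6 to 59.2% (median 52.5%) in Sham-OVA. In PM they were 15.6 to 35.8% (median 23.5%), and in PM-OVA 34.6 to 59.1% (median 49.3%). All Sham-OVA libraries were above all Sham libraries, whereas 1 PM library reached into the PM-OVA range. The differences were 29.6 points (log2 ratio 1.91 ± 0.20 SE, adjusted p = 8.36e-08) and 25 points (1.63 ± 0.20, adjusted p = 3.17e-07).

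Nfia encodes a nuclear factor I protein that guides differentiation of several organs. Its intronic window (chr4:97866133-97869688) rose from 24.1 to 34.9% (median 26.7%) in Sham to 43.2 to 59.2% (median 51.4%) in Sham-OVA. In the PM arm it rose from 23.1 to 37.7% (median 31.6%) to 47.2 to 59.1% (median 51.5%). The groups did not overlap in either arm, and the differences were 22.7 points (adjusted p = 7.48e-08) and 21.4 points (adjusted p = 8.06e-08). Rnf220, a ubiquitin ligase, had an intronic window (chr4:117302337-117304289) at 19.8 to 38.1% in Sham and 47.1 to 63.1% in Sham-OVA, and at 23.7 to 40.5% in PM and 40.4 to 54.2% in PM-OVA. It rose by 25.8 and 17.7 points, and the PM groups met at their edges.

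Ctdsp2, a small phosphatase that acts on transcription and Smad proteins, started lowest. Its intronic window (chr10:126982167-126985725) had medians of 18.1% in Sham, 39.8% in Sham-OVA, 20.2% in PM and 40.3% in PM-OVA, and rose by 20.6 and 18.9 points (adjusted p = 5.11e-09 and 8.78e-09) with no overlap. Smad7, an inhibitor of transforming growth factor β signalling, had an exonic window (chr18:75373319-75376185) with group medians, in the same order, of 21.5%, 43.7%, 23.2% and 43.1%. Gfi1, a zinc finger repressor of blood cell development, had an exonic window (chr5:107718680-107721361) with medians of 24.1%, 48.9%, 25.6% and 44.4%. Jup encodes plakoglobin, a protein of cell junctions, and its intronic window (chr11:100387754-100391386) had medians of 30.2%, 48.7%, 30% and 47.9%. In these windows OVA and unchallenged libraries were apart in both arms.

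The other large rises were in Aopep, an aminopeptidase (21.6 points in the Sham arm and 17.4 in the PM arm), in Gm38708 (24.7 and 14.2) and in H13, an intramembrane protease (17.2 and 21.5). Gm38708 had the largest gap between the arms of the 10. Its values ran from 25.1 to 29.8% in Sham and 25.9 to 41.5% in PM, so its unchallenged libraries spread more widely in the PM arm, and its interaction, the difference between the arms in the OVA effect, was -10.5 points (adjusted p = 0.551, limma).

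Of the 10 largest falls called in both arms, that of Laptm5 was the second in the Sham arm and the largest in the PM arm. Laptm5, a lysosomal protein of blood cells, had a window over a transcript start (chr4:130913037-130916041) at 43.5 to 52.3% (median 46.1%) in Sham and 19.8 to 39.1% (median 28.5%) in Sham-OVA. In PM it was at 40.7 to 50.8% (median 47.9%) and in PM-OVA at 21.7 to 32.6% (median 28.8%). It fell by 18.5 points in the Sham arm and by 17.5 points in the PM arm (adjusted p = 5.47e-07 and 5.48e-07), with no overlap in either. Akna encodes an AT-hook protein that is abundant in lymphocytes. Its window (chr4:63399629-63402473) had medians of 50% in Sham, 30.9% in Sham-OVA, 48.0% in PM and 32.9% in PM-OVA, and the 7 PM libraries lay within 46.8 to 49.0%.

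Tnfsf4, the OX40 ligand with which antigen-presenting cells stimulate T cells, fell by 16.5 and 14 points at its start (chr1:161395251-161397818), from medians of 47.7% and 46.2% to 30.8% and 32.4%. Coro1a, an actin-binding coronin of leukocytes, fell by 15.3 and 14.5 points at a start (chr7:126701336-126703716), from 49.2% and 47.7% to 33.8% and 33.1%. Il12a, a subunit of interleukin 12, which directs T helper 1 responses, fell by 15.5 and 14.1 points at its start (chr3:68690829-68693051). The PM libraries spread from 41.6 to 56.0% and the PM-OVA libraries from 27.7 to 40.4%, which still did not overlap.

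A window that the table names Galnt2l (chr8:122696382-122699991) overlaps Cbfa2t3, a transcriptional corepressor of blood cells, together with Gm20388 and Gm10612. It fell from medians of 47.3% in Sham and 46.7% in PM to 33.2% and 32.4% (adjusted p = 4.49e-09 and 8.71e-10). The falls of the long noncoding RNA genes Gm29683 (16.5 and 14.1 points) and Tbx3os1 (15 and 14.5) and of 5830428M24Rik (14.8 and 15.6) and Arhgef10 (14.5 and 14.6) were of similar size. In all 10 of the windows that fell the Sham and Sham-OVA libraries were apart, and PM and PM-OVA libraries overlapped in Tbx3os1 alone, where PM-OVA ran from 17.1 to 35.5% and PM from 34.3 to 47.1%.

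Among all windows called in an arm, OVA and unchallenged libraries did not overlap at all in 503 of 572 (87.9%) in the Sham arm and in 322 of 404 (79.7%) in the PM arm, against 87.5% and 84.4% of all called windows of the series. A minimum difference of 10 points favours such separation. Over all 13373 windows, called or not, the groups were apart in 14% in the Sham arm and 11.7% in the PM arm, against 8.58% and 12% of all tested windows. Averaged over the 299 windows higher in both arms, libraries ran from 36.3 to 41.1% in Sham, 48.3 to 56.2% in Sham-OVA, 35.4 to 43.3% in PM and 49.5 to 54.3% in PM-OVA. Over the 58 lower in both arms they ran from 40.7 to 43.4%, 26.6 to 34.1%, 39.0 to 44.2% and 27.1 to 31.8%. The called windows also varied more between animals of a group, with a median pooled SD of 3.55 points in those higher in both arms and 2.90 in those lower in both, against 1.51 in all 13373.

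Several gene names had partly methylated windows that rose along a stretch. The genes described next were picked after their values were seen, as those with at least 4 windows higher in both arms. Of all 13373 windows 2.24% were higher in both arms. Only partly methylated windows are counted. These were 9 of the 25 tested windows of Gm28308, 7 of 26 of Smad6 and 6 of 15 of Smad7. They were 5 of the 23 tested windows of Ift140, 6 of 17 of Lncppara and 10 of 63 of Aopep. The other windows of these genes are not described. Between 52166130 and 52211471 on chromosome 6, from Hoxaas2 past Hoxa5, 8 of the 9 partly methylated windows named Gm28308 were called higher in both arms. Their differences ran up to 29.6 points in the Sham arm with a median of 17.1, and up to 25 in the PM arm with a median of 16.1. The ninth, at chr6:52208867-52211471, differed by 1.83 and 2.62 points. Hoxa9, a neighbour in the same cluster, went the other way, and its window (chr6:52222535-52224700) fell by 11.8 and 11.7 points (adjusted p = 2.68e-05 and 1.43e-05).

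Smad6 and Smad7, the inhibitory Smad proteins of bone morphogenetic protein and transforming growth factor β signalling, had 5 of 7 and 5 of 6 windows higher in both arms. The median difference was 13.6 and 12.7 points over the windows of Smad6 in the Sham and PM arms and 15.2 and 13.4 over those of Smad7, and each of these partly methylated windows had a higher mean after OVA in both arms. Epas1, the hypoxia-inducible factor of endothelium and lung, had 10 partly methylated windows, of its 28 tested windows, between 86758602 and 86802549 on chromosome 17. All 10 had higher means after OVA in both arms, by 6.57 to 14.5 points in the Sham arm and 7.88 to 12.5 in the PM arm, 9 were called in the Sham arm and 4 in the PM arm.

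Ift140 had 4 of 5 windows higher in both arms, and all 4 also overlapped Tmem204, a membrane protein of endothelial cells. The fifth, which did not, differed by -0.114 and -0.259 points. Lncppara, a long noncoding RNA gene, had 5 of 6 higher in both arms, with medians of 14.8 and 13.3 points. Aopep had 4 of 10, all 4 between 63270189 and 63282355 on chromosome 13, while 4 of its other windows were lower in at least one arm by 0.199 to 3.19 points, without being called. On the falling side Tbx3os1, beside the lung mesenchymal regulator Tbx3, had 4 of 6 windows lower in both arms and Gm29683 3 of 6.

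**Figure D4:**
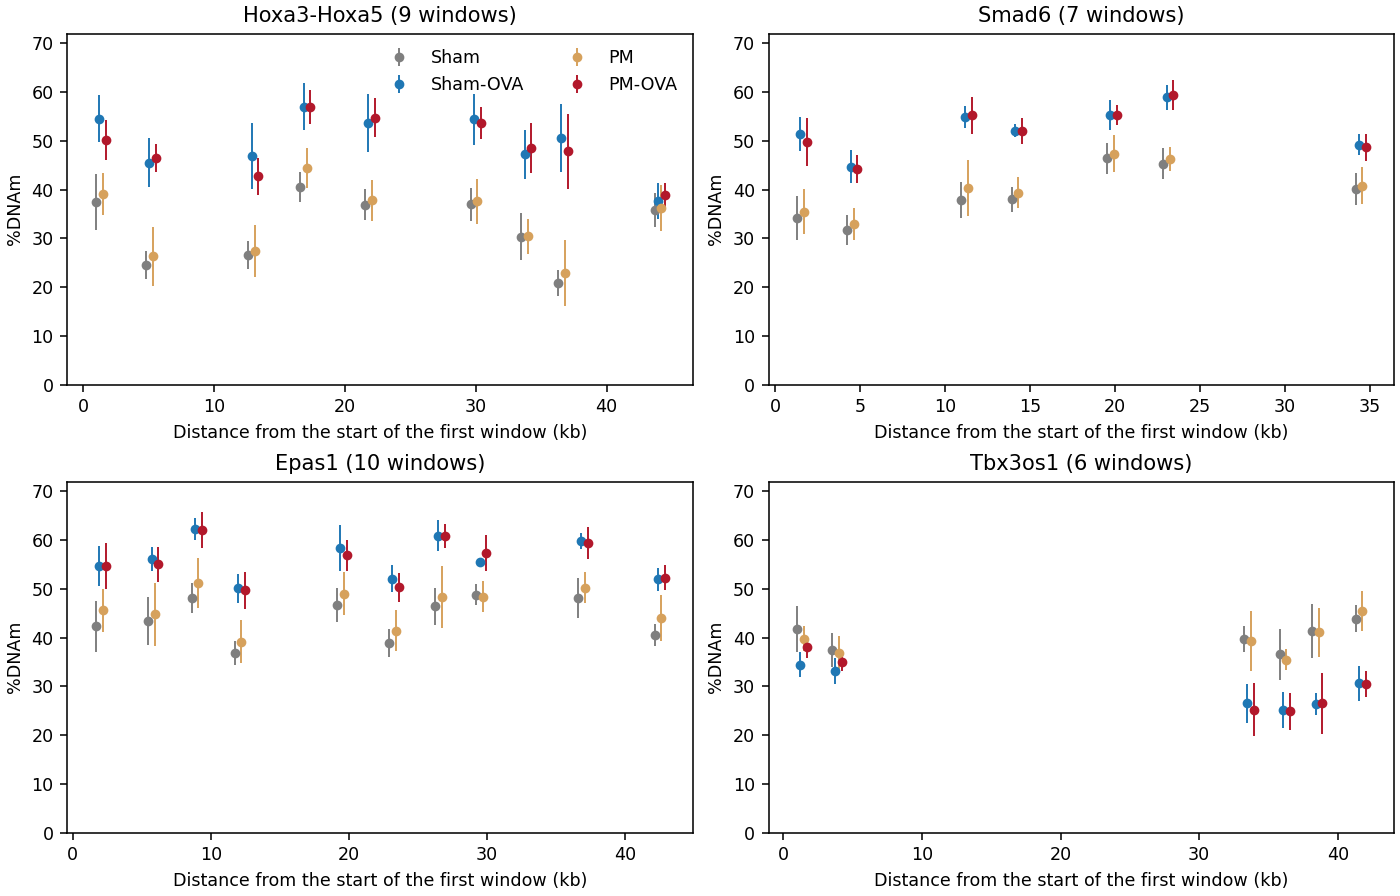
Mean %DNAm (± 1 SD) of the 4 groups at the partly methylated windows of 4 gene names, against the distance of the window's middle from the start of the first window in kb. In the Hoxa3 to Hoxa5 region, Smad6 and Epas1 both OVA groups (blue and red) lie above both unchallenged groups, by least at the last Hoxa window, and in Tbx3os1 they lie below, most clearly at the 4 windows over 30 kb from the first.

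Gene lists were used to describe the windows by cell type and function. A window belonged to a list when the table or GENCODE named one of its genes there. Of 43 endothelial genes, 26 had partly methylated windows, 63 in all, or 12.3% of the 512 tested windows of these genes. Over the other lists this share was 12.1% for developmental transcription factors and 5.22 to 7.87% for the remaining 6, against 5.16% of all tested windows. In the Sham arm 8 rose (12.7%) and 0 fell, and in the PM arm 3 rose (4.76%) and 0 fell. Of all 13373 windows 3.74% and 2.47% rose, and the shares of all lists are to be read against these, without a test. With the adjusted p alone, 35 were higher and 7 lower in the Sham arm, where 25.2% and 12.8% of all 13373 windows were, and 30 and 9 in the PM arm, where 20.8% and 16.3% were. The list's median difference was 3.99 points in the Sham arm and 2.27 in the PM arm, against 0.444 and 0.0210 over all 13373 windows.

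Plvap, which forms the diaphragms of capillary pores, rose by 17.2 and 14 points in a window it shares with Gtpbp3 (chr8:71495436-71498802), from medians of 31.3% in Sham and 37.5% in PM to 49.8% and 47.5%. Gata2, a transcription factor of endothelial and blood progenitor cells, rose by 14.9 and 10.8 points, and Sox7, an endothelial transcription factor, by 11 and 10.2. Eng and Acvrl1, which encode endoglin and the receptor ALK1 of the same endothelial pathway, rose by 11.6 and 10.8 points in the Sham arm. In the PM arm their 9.82 and 9.64 points were just under the minimum difference (adjusted p = 1.26e-05 and 0.000413), as were the 9.83 points of Egfl7, a secreted vascular protein that rose by 10.2 points in the Sham arm. The list was not uniform. The 7 windows of Erg, an endothelial ETS factor, had median differences of -3.79 and -2.30 points, and the 3 of Fli1, its relative, -3.36 and -3.01, with 0 called.

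Of 77 developmental transcription factor genes, 40 had 76 windows in the range. In the Sham arm 11 rose (14.5%, against 3.74% of all 13373 windows) and 1 fell (against 0.538%), and in the PM arm 8 rose (10.5%, against 2.47%) and 1 fell (against 0.553%). Hoxa3 alone overlapped 8 of these windows, 7 of them called higher in each arm. Hoxd3 rose by 14 points in the Sham arm (chr2:74723781-74726791), where its 8.96 points in the PM arm were under the minimum, and a window over Hoxb4 and Hoxb3, which the table names Hoxb4 (chr11:96320381-96323394), rose by 11.5 and 11. Pax7, a regulator of muscle stem cells, rose by 10.5 points in an intron in the Sham arm, and its 9.28 points in the PM arm were under the minimum (adjusted p = 9.16e-05). The 3 windows of Lhx6, a LIM homeobox factor, had medians of -7.56 and -7.30 points, with 0 called.

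Of 63 lymphoid genes, 19 had 44 windows in the range. In the Sham arm 6 rose (13.6%, against 3.74% of all 13373 windows) and in the PM arm 5 (11.4%, against 2.47%), all in the transcription factor genes Runx1, Runx3 and Ets1, and 0 fell. Runx1, needed for blood stem cells, rose by 18.8 and 16.4 points near a start (chr16:92693074-92695516), from 21.3 to 34.9% in Sham to 41.6 to 56.5% in Sham-OVA and from 22.8 to 32% in PM to 39.2 to 53.6% in PM-OVA. Runx3, a factor of cytotoxic T cells, rose by 18.1 and 14.8 points in an intron (chr4:135166521-135169008), and Ets1 by 13.1 and 11.3 points (chr9:32713996-32718305). Genes of T cell receptor signalling had windows in the range too, none of them called. Cd3g differed by -1.31 and -1.06 points in 1 window, and Cd247 had median differences of -2.56 and -0.738 points over 2 windows, Lck -1.11 and -1.01 in 1 window, Zap70 0.676 and 0.378 in 1 window and Lcp2 0.879 and 1.66 in 1 window, with 0 called. Of all 767 tested windows of the lymphoid list, at any level, 14 rose (1.83%) and 23 fell (3.00%) in the Sham arm, against 0.479% and 0.296% of all tested windows.

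Of 61 myeloid genes, 15 had 21 windows in the range, of which 2 rose (9.52%) and 1 fell in each arm. Of all 13373 windows 3.74% rose and 0.538% fell in the Sham arm, and 2.47% and 0.553% in the PM arm. By the adjusted p alone the balance was the other way, with 4 of the 21 higher and 7 lower in each arm. Of all 13373 windows 25.2% were higher and 12.8% lower in the Sham arm, and 20.8% and 16.3% in the PM arm. The list's median difference was 0.0620 points in the Sham arm and -0.595 in the PM arm. Of all 402 tested windows of the list, at any level, 7 rose (1.74%) and 12 fell (2.99%) in each arm, against 0.479% and 0.296% of all tested windows in the Sham arm and 0.263% and 0.321% in the PM arm. Besides Gfi1 and Coro1a, Spi1, which encodes PU.1, the master factor of myeloid cells, was called, and rose by 13.9 and 13.5 points in an exonic window (chr2:91113404-91115447), from medians of 40.5% in Sham and 40.9% in PM to 54.2% and 52.7%. The single window of Irf8, a factor of dendritic cells and monocytes, differed by -4.54 and -6.58 points. Cx3cr1, a chemokine receptor of monocytes, had 6 windows with medians of 0.0515 and -1.17 points, and 0 called.

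Of 54 epithelial genes, 20 had 30 windows in the range, 3 of which rose in the Sham arm and 0 in the PM arm, against 3.74% and 2.47% of all 13373 windows. With the adjusted p alone, 10 of the 30 were higher in each arm, against 25.2% and 20.8% of all 13373 windows. Hopx, a marker of alveolar type 1 cells, was at 42.6 to 46.5% in Sham and 51.0 to 62.0% in Sham-OVA, a rise of 13.2 points. In PM it was at 46.0 to 54.6% and in PM-OVA at 51.6 to 59.0%, a difference of 5.65 points (adjusted p = 0.00311). Krt8, a keratin of simple epithelia, rose by 10.9 points in the Sham arm and Tjp1, a tight junction protein, by 11.1. In the PM arm they differed by 8.18 points (adjusted p = 2.13e-05) and 7.14 points (adjusted p = 0.000505), under the minimum difference. Of 41 mesenchymal genes, 24 had 37 windows, and 1, near the start of Hhip, a hedgehog-binding protein linked to airway disease, rose in both arms (11.2 and 10.8 points). That is 2.70% of the list, near the 3.74% and 2.47% of all 13373 windows. By the adjusted p alone, 17 of the 37 were higher and 3 lower in the Sham arm, and 10 and 6 in the PM arm. Of all 13373 windows 25.2% were higher and 12.8% lower in the Sham arm, and 20.8% and 16.3% in the PM arm. The list's median difference was 2.24 points in the Sham arm and 1.31 in the PM arm, against 0.444 and 0.0210 over all 13373 windows. Genes of the list differed in direction. The 4 windows of Pdgfrb, the most of any mesenchymal gene, had medians of 6.05 and 4.65 points. The 2 windows of Tbx2 had medians of -7.11 and -7.41 points, with 0 called in either gene.

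Of 49 imprinted genes, 26 had 35 windows in the range, with a median level of 44.8%, the highest of the 8 lists, and 1 rose in each arm, that of H13 described above, or 2.86% against 3.74% and 2.47% of all 13373 windows. The windows of Igf2, a fetal growth factor, lay at 44.5 to 49.0% and had median differences of 1.06 and -0.790 points. Snrpn, which makes a splicing protein from the paternal copy, lay at 40 to 47.9% with -0.00503 and -1.71 points. The Peg12 window (chr7:62464321-62468539) had a level of 35.6%, and libraries ran from 30.8 to 43.4%, with differences of 1.83 and 1.52 points (adjusted p = 0.446 and 0.486). Gnas and Dlk1 had medians of 5.88 and 6.81 points in the Sham arm, with 0 called.

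Of 16 genes of the DNA methylation machinery, 11 had 17 windows in the range. In the Sham arm 1 rose (5.88%, against 3.74% of all 13373 windows), and in the PM arm 0 did (against 2.47%). It lay near a start of Dnmt3a, a de novo methyltransferase (chr12:3808323-3812379) and rose from 31.9 to 38.5% in Sham to 41.2 to 50.1% in Sham-OVA, by 10.7 points. In the PM arm it differed by 8.33 points (adjusted p = 5.44e-06). Dnmt1, the maintenance methyltransferase, had a window at 25.6% that differed by 0.0830 and 0.197 points.

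Short motifs of transcription factors were counted in the central 1500 bases of each window, on either strand. GAGGAAGT, a motif of PU.1, was in 9.26% of the partly methylated windows and 9.19% of all windows of this length. It was in 7.69% of those higher in both arms and in 17.2% (10 of 58) of those lower in both. TGTGGTTT, a motif of Runx factors, was in 10.7% and 11.5%, and in 7.69% and 15.5% (9 of 58). GGGCGGGG, a motif of Klf and Sp factors, was in 11% of these windows, 5.32% of all, 16.7% of those higher and 13.8% of those lower. ATGAGTCA of AP-1 (4.74% of these windows and 5.38% of all), TGTTTACA of Fox factors (8.12% and 8.36%) and ACATTCCA of TEAD factors (7.44% and 7.00%) were about as common in both. No test was made of these shares, and a match of letters is not a site of binding.

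The effect of maternal PM2.5 was asked of the same windows. Without OVA, 0 of the 13373 windows were called between PM and Sham, as in all tested windows (0%), and 475 (3.55%) had an unadjusted p under 0.05, against 5.79% of all tested windows. With OVA, 0 were called between PM-OVA and Sham-OVA (0% of all tested windows), and 538 (4.02%) had an unadjusted p under 0.05, against 5.96%. For the interaction 0 were called (0% of all tested windows), and 559 (4.18%) had an unadjusted p under 0.05, against 7.40%. On percentages in place of the log2 ratio limma called 0 as well, with 673, 770 and 806 at an unadjusted p under 0.05. In the narrower range of 25 to 45%, which holds fewer windows, 299, 318 and 340 had such a p. The smallest adjusted p was 0.696 without OVA, 0.676 with OVA and 0.496 for the interaction. Group means of PM and Sham differed by at least 10 points in 5 windows without OVA and 3 with OVA.

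The windows with the smallest p between PM and Sham differed by a few points. Mmp2, a matrix gelatinase, was at 38.6 to 44.6% in Sham and 43.6 to 47.1% in PM near a start (chr8:92827678-92831339), a difference of 4.27 points (adjusted p = 0.696). Ly6h (chr15:75562996-75565794) was at 45.7 to 47.6% in Sham and 48.2 to 51.3% in PM without overlap, a difference of 3.08 points (adjusted p = 0.696). It also had the smallest p of the interaction, since it differed by -0.0725 points after OVA in the Sham arm and by -5.05 in the PM arm (interaction adjusted p = 0.496). Man1a2, a mannosidase of protein glycosylation, followed, with 4.17 and -1.10 points (interaction adjusted p = 0.496).

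With OVA, Tiam1, an activator of the GTPase Rac, was at 31.5 to 36.5% in Sham-OVA and 27.9 to 31.6% in PM-OVA at a start (chr16:89817653-89819184), a difference of -4.09 points (adjusted p = 0.676). Unchallenged libraries lay at 17.8 to 23.2% in Sham and 19.8 to 22.1% in PM. OVA raised this window by 12.7 points in the Sham arm, and the difference in the PM arm was 8.49 points. Gm3558 differed by -3.69 points between PM-OVA and Sham-OVA (adjusted p = 0.676).

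For the windows with the largest differences among those called in 1 arm alone, the difference between the arms was not called. Chl1, a neural cell adhesion molecule, had an intronic window (chr6:103579162-103582175) at 24.4 to 48.9% in Sham and 50.8 to 71.6% in Sham-OVA, a rise of 22.8 points, and annotated repeats cover it whole. In PM it was at 40.5 to 62.0% and in PM-OVA at 43.9 to 70.9%, a difference of 8.48 points, and the interaction was -14.4 points (adjusted p = 0.637). An exonic window of Runx3 (chr4:135175451-135177494) rose by 17.9 points in the Sham arm and differed by 7.32 in the PM arm (interaction adjusted p = 0.575). Tpm2, a tropomyosin of muscle, rose by 14.3 points in the PM arm (chr4:43518441-43520197) and differed by 8.37 in the Sham arm (interaction adjusted p = 0.630). Gm21863 rose by 16.2 points in the PM arm (adjusted p = 0.0231), a call lost with the replicate number as a block (adjusted p = 0.0703), and differed by 2.41 in the Sham arm (interaction adjusted p = 0.718), with libraries spread from 23.0 to 64.4% in PM alone.

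A few windows varied widely between animals of the same group. The pooled SD within groups had a median of 1.51 points over the 13373 windows (quartiles 1.13 and 2.07) and was over 10 points in 6. The widest was the intronic Snd1 window (chr6:28924946-28928455), with a pooled SD of 19.8 points. Its libraries ran from 9.46 to 67.5% in Sham, 13.3 to 69.2% in Sham-OVA, 11.4 to 42.3% in PM and 2.31 to 67.4% in PM-OVA, so every group held both low and higher animals. OVA differences of 8.71 and 13.0 points were within that spread (adjusted p = 0.486 and 0.542).

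Next came introns of Gm13849 (17.8 points, with libraries from 14.7 to 68.8% in Sham and 38.1 to 88.5% in PM) and Gm5535 (15 points, from 5.28 to 56.6% in Sham). Gm21863 (12.1 points) and Gm10110 (11.9 points) followed. Annotated repeats made up 99.8% of the Snd1 window, 73.9% of that of Gm13849 and 88.5% of that of Gm5535, against a median of 20%, but 1.31% of that of Gm21863 and 24.3% of that of Gm10110. These windows held 50 to 133 CpGs of the reference. The part of repeats in this spread was not tested.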

How the data were processed

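The authors prepared enzymatic methyl-seq libraries spiked with unmethylated lambda DNA, trimmed reads with Trim Galore, and mapped and called them against GRCm38 with DRAGEN, as the labels and methods state. The deposited values are a percent methylation per window and library, which the authors averaged in SeqMonk over the calls of windows of consecutive CpGs, keeping windows that overlap a gene. Replicates were not pooled. The table holds no counts or coverage, so the coverage behind each value is not known here and no interval from counts is given. The study states the sequencing yield of its libraries, which does not give the coverage of a window.

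The windows and the gene lists were chosen with earlier results of these data known. Windows with at least 3 values in every group (259167, with 1519 not tested) were converted to log2((percent + 1) / (101 - percent)) and fitted with limma 3.58.1 in R 4.3.3, all 29 libraries in 1 fit, with contrasts between groups. The fit was tested on simulated data. A call needed an adjusted p under 0.05 over all windows and a difference of at least 10 percentage points. Windows were placed with GENCODE M21 of GRCm38, by transcript starts inside or within 2000 bp, then exons, then introns, and CpGs, GC and soft-masked repeats were counted in the GRCm38.p6 sequence of RefSeq. The groups came from the labels. Windows named in the text are the 10 largest rises and 10 largest falls called in both arms, the 2 largest called in each arm alone, the 2 with the smallest p for each PM2.5 contrast and the interaction, the 5 with the largest spread, those nearest the range's edges, gene names with the most windows, and for each list up to 6 called windows and the genes with the most windows, with a single window per gene name. Genes with several windows, and the further list genes given with their medians, were added after their values were seen. Alternatives covered the scale, offset, centring, thresholds, missing values, replicate block, libraries and range of the windows. Python 3.11.15 made the tables and figures.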

Additional observations from a re-analysis of the deposited data

Results flagged for a closer look

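In groups of 7 or 8 libraries, a library was singled out where its gap to the nearest other was too large a share of its group's range by Dixon's 95% limit. Of 212 groups examined (52 named windows and the average over all windows, in 4 groups each), 11 held such a library, and chance alone gives about 1 in 20. The causes were not tested.

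Sham replicate 7 was high at 3 windows, with 61.2% at Gm21863 (others 34.7 to 45.7%), 64.2% at Gm10110 (others 31.3 to 39.2%) and 48.0% at Spi1 (others 38.3 to 42.0%). Sham replicate 5 was high at Tnfsf4, with 52.2% (others 46.2 to 48.1%), and at Gm3558, with 38.1% (others 33.3 to 34.4%). Among PM libraries, replicate 7 was at 40.5% at Rnf220 (others 23.7 to 28.7%), replicate 1 at 35.6% at Smad7 (others 19.8 to 24.9%) and replicate 5 at 22.8% at Runx1 (others 29.8 to 32%). Among challenged libraries, Sham-OVA replicate 7 was at 30.8% at Tbx3os1 (others 23.8 to 26.6%), PM-OVA replicate 4 at 42.4% at Ets1 (others 49.0 to 54.9%) and PM-OVA replicate 6 at 40.4% at Eng (others 45.4 to 49.0%).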

How the results depend on the processing

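With a minimum difference of 5 points, 1601 windows were called higher and 442 lower in the Sham arm, 1272 and 476 in the PM arm, and 1185 and 357 in both arms. Windows chosen on the Sham libraries then gave 1298 and 482 calls in the PM arm, and those chosen on the PM libraries 1556 and 458 in the Sham arm. With an adjusted p under 1e-06, 204 were higher and 43 lower in the Sham arm, 115 higher in the PM arm, and 87 and 34 in both. The windows chosen on one arm gave 116 rises in the PM arm and 203 rises and 46 falls in the Sham arm. With a range of 25 to 45%, which holds fewer windows, 324 were higher and 42 lower in the Sham arm, 219 and 46 in the PM arm, and 36 lower in both. The windows chosen on one arm then gave 45 falls in the PM arm and 308 rises and 42 falls in the Sham arm. After each library was centred by its median difference from the window means, 46 were lower in the PM arm (47 of those chosen on Sham libraries). The average over the windows then differed after OVA by 1.48 points in the Sham arm and 1.53 in the PM arm. PM minus Sham without OVA was -0.0549 points in place of 0.241.

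Leaving out 1 library at a time gave 453 to 555 rises and 65 to 97 falls in the Sham arm, 280 to 377 and 64 to 83 in the PM arm, and 259 to 338 and 51 to 65 in both. Windows chosen on Sham libraries gave 284 to 386 and 65 to 84, and those chosen on PM libraries 437 to 541 rises and from 69 falls to 1.33 times the reported 76 (without Sham-OVA replicate 7). The averages differed by 0.999 to 1.21, 0.441 to 0.659 and 0.131 to 0.348 points (OVA in Sham, OVA in PM, and PM without OVA). The PM2.5 contrasts and the interaction stayed at 0 calls.

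With the replicate number as a block, 500 windows were called higher and 72 lower in the Sham arm, 329 and 74 in the PM arm, and 299 and 58 in both. The labels tie no number to a litter or day, same-numbered libraries correlated at -0.155 to 0.211, and 5 of 42 correlated best with their own number. The Gm21863 window was not called under the block (adjusted p = 0.0703, limma). The 98 differences of named windows were refitted under 9 alternatives, and of the 882 values 835 stayed on the same side of the call, called or not, 32 lost a call, 15 gained one and 0 reversed. Of the fits without 1 library, that without Sham replicate 1 was among these. The lack of coverage per window, unknown litters and whole tissue limit what the values can show.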
